A study of Mus musculus with 14 samples.

Results

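The fatty acid binding proteins (FABPs) are a family of small cytosolic proteins that share a barrel fold with a cavity for a long-chain fatty acid or a related lipid. They carry their ligands between membranes, enzymes and the nucleus, and each member is known for particular tissues. In hepatocytes the liver form, encoded by Fabp1, is an abundant cytosolic protein that hands ligands to the nuclear receptor PPAR-alpha, and Fabp1 is itself a target gene of that receptor. The family was followed here in mouse liver through 9 genes, Fabp1 to Fabp7, Fabp9 and Fabp12, out of 19237 named genes on the array.

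A probe set was taken for a member only where the platform annotation gave it that gene symbol and no other, which held for 8 of the 9 genes. Where a gene had several such probe sets, the one used was chosen by its mean over all 14 arrays, the highest being kept, so these means are a description and support nothing here. The family was proposed with earlier results of these data known. Both probe sets that name Fabp5 also name the pseudogene Fabp5l2, so Fabp5 was not analysed here. Fabp3 had 2 probe sets of its own name. A pseudogene, Fabp3-ps1, is also annotated, and whether Fabp3 probes detect it was not tested.

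The samples were livers of 7 wild-type mice (LRH-1 WT) and 7 mice carrying the K289R form of LRH-1 (LRH-1 K289R), with 1 Affymetrix array per mouse. LRH-1 is the nuclear receptor encoded by Nr5a2, and the lysine replaced in K289R is a site at which it is modified by SUMO. All mice were 17 to 19 weeks old, had free access to food and were killed at 7 am. The labels give no strain, sex, litter or cage for a single mouse and do not say which cells carry the K289R form, so mice of a group may share more than their genotype. Values are log2(intensity + 1), a scale that understates changes of dim probe sets, and differences are K289R minus WT with the standard error (SE) of a model fitted across all 19237 genes with limma. A difference was called at a Benjamini-Hochberg adjusted p below 0.05 over all genes. Levels of different genes are not set against each other, because each probe set has its own response.

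The 1044 olfactory receptor genes served as a background, since liver is not known to use them. The 95th percentile of their means was 5.10 (log2 intensity), and 12191 genes lay above it. Of the 9 hepatocyte markers measured, all lay above it and none fell, while Hpx (0.14 ± 0.04) and Serpinc1 (0.12 ± 0.04) rose, calls that the random blocks described next did not keep. Earlier work on these arrays described sets within each genotype, replicates 1 to 4 and replicates 5 to 7, that the labels do not name. Differences are therefore also given within each set and with the sets as random blocks. The blocks are the sets within each genotype, and 1 correlation between arrays of a set, 0.178, was taken for all genes. A gene whose sets differ more than this is allowed for only in part.

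Promoter sequences of the members that fell are shown first, because LRH-1 and PPAR-alpha bind elements built from the half-site AGGTCA. RefSeq promoter windows (build GRCm38.p6) were matched by symbol for 5 of the 9 members, Fabp1, Fabp2, Fabp3, Fabp6 and Fabp7. The 250 bases before the annotated start are printed 5′ to 3′ on the plus strand, at chr10:57784673-57784922 for Fabp7, chr6:71199629-71199878 for Fabp1 and chr3:122894822-122895071 for Fabp2. Capitals mark AGGTCA or GTTAAT, the latter a half-site of the hepatocyte factor HNF1, on either strand.
Fabp7: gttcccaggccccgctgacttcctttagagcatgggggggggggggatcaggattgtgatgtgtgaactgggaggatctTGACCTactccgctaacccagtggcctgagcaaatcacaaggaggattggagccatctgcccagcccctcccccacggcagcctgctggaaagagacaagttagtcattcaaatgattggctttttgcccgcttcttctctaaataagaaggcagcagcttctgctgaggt
Fabp1: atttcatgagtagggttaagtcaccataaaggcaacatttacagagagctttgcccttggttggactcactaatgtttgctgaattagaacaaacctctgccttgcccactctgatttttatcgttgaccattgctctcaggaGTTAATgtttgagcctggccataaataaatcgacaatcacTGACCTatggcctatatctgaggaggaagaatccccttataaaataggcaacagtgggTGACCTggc
Fabp2: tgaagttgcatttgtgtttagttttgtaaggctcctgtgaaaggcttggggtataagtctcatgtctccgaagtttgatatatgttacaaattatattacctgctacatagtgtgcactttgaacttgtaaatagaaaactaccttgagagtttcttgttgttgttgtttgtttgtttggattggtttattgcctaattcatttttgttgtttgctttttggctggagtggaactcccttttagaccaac

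The Fabp1 window held AGGTCA on the minus strand at 67 to 62 and at 9 to 4 bases before the start, GTTAAT at 107 to 102 bases, and a TATA box, TATAAA, at 30 to 25 bases. In rat, the Fabp1 promoter is known to hold a response element for PPAR. The Fabp7 window held AGGTCA on the minus strand at 171 to 166 bases before the start. The Fabp2 window held none of the 5 motifs searched, each on both strands. The other two were CAAGGTCA, the extended half-site of LRH-1 that contains the shorter one, and the E-box, spelled CACGTG. None of the 5 member windows held the extended half-site or the E-box. Over all 32851 promoter windows of this length, the half-site AGGTCA was found in 14.02%, its extended form in 1.33% and the HNF1 half-site in 6.43%. The E-box was found in 6.02% and the TATA box in 12.4%. These matches describe letters only and show no binding.

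The members moved in both directions in K289R livers, with 4 of the 8 estimates below 0 and 4 above. Of the 8 measured members, 4 fell (Fabp1, Fabp2, Fabp4 and Fabp7), 1 rose (Fabp9, at a level within the background) and 3 did not pass (Fabp3, Fabp6 and Fabp12). Among all genes tested 19.1% passed, 8.37% higher and 10.8% lower. The median difference of the 8 members was -0.11 log2 units, against 0.05 over all genes. For 3 members, Fabp2, Fabp4 and Fabp7, the values of the genotypes did not overlap, which was so for 7.54% of all genes. With the sets as random blocks the 4 falls were still called and the rise of Fabp9 was not, where 11.3% of all genes passed.

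**Figure D1:**
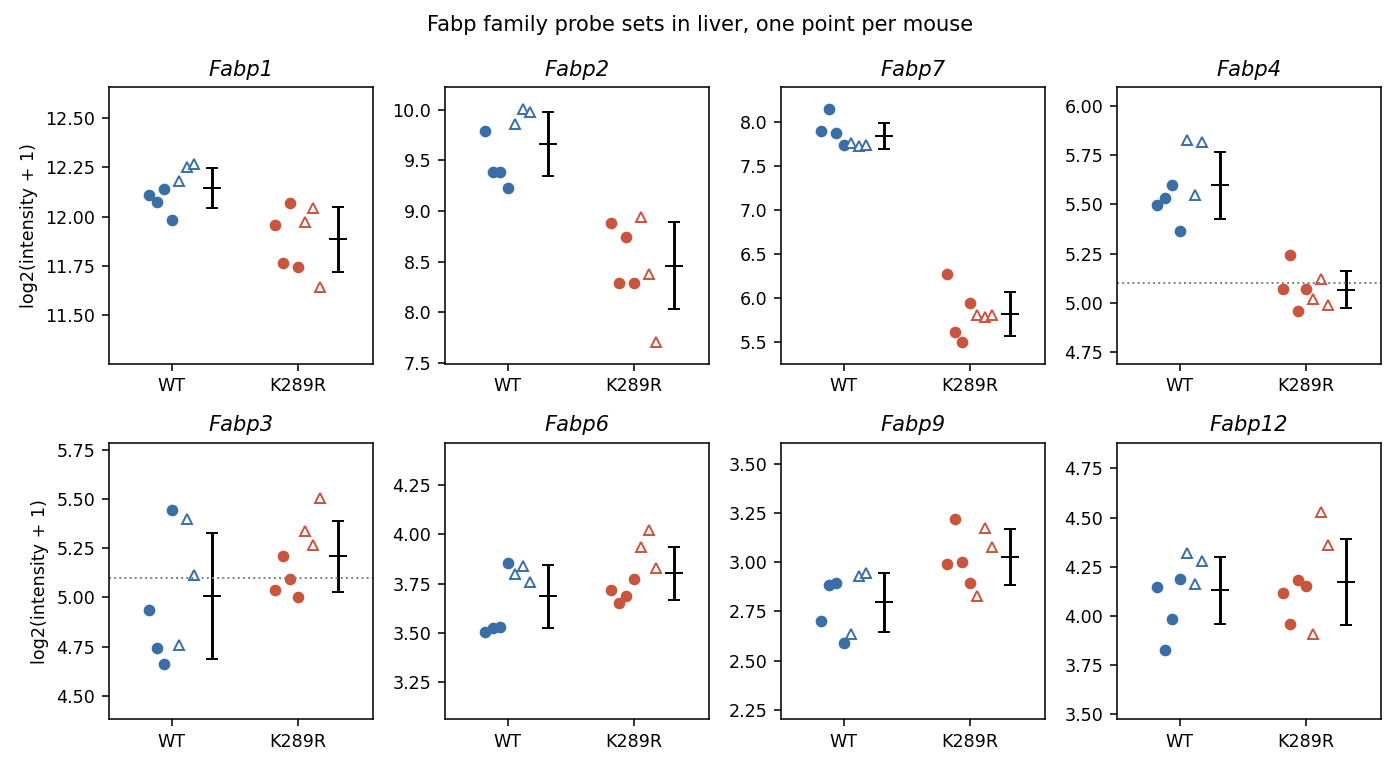
Level of each Fabp family probe set (log2(intensity + 1), vertical axis, with its own range in each panel) in 7 WT and 7 K289R livers, 1 point per mouse. Filled circles are replicates 1 to 4, open triangles replicates 5 to 7, black bars the mean ± SD of 7 arrays, and the dotted line, where in range, the 95th percentile of olfactory receptor genes (5.10). For Fabp2, Fabp7 and Fabp4 each K289R point lies below each WT point.

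Fabp7 showed the steepest fall of the family. It encodes the brain-type FABP of radial glia and astrocytes, and in mouse liver the protein has been described in Kupffer cells, the resident macrophages. Its level ran from 7.72 to 8.14 (log2 intensity) with a median of 7.76 in WT livers, and from 5.51 to 6.28 with a median of 5.81 in K289R livers. The lowest WT array thus stood above the highest K289R array, and K289R replicate 1 was the highest of its group. The group means were 7.84 ± 0.15 and 5.82 ± 0.25 (SD, n = 7 each). The difference was -2.01 ± 0.10 log2 units, a fold of 4.04 (95% interval of the difference -2.22 to -1.80, limma adjusted p = 6.42e-11). Among all genes 5 fell by as much or more, Fabp7 included. The fall was as large within the sets, at -2.07 among replicates 1 to 4 and -1.93 among replicates 5 to 7. All 7 K289R arrays stayed above the 95th percentile of olfactory receptor genes, so the transcript was reduced in level but still above that background.

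In bulk liver, fewer cells of a type and less RNA per cell cannot be told apart, so Kupffer cell and macrophage markers are set beside Fabp7. Among 14 such markers there were 4 falls, 1 rise (C1qa, 0.30 ± 0.10) and 9 that did not pass. Vsig4, a complement receptor of Kupffer cells, fell by 0.75 ± 0.12 (log2, SE), C1qc by 0.52 ± 0.11 and Folr2 by 0.46 ± 0.10, the 3 that also passed with random blocks. Adgre1, which encodes a surface receptor of macrophages, fell by 0.42 ± 0.13. Clec4f, a lectin that marks Kupffer cells in mouse, differed by -0.02 ± 0.09 (limma adjusted p = 0.887) and the macrophage receptor gene Csf1r by -0.03 ± 0.10 (limma adjusted p = 0.851). The summed level of the 14 markers was 11.72 to 11.93 across WT arrays and 11.31 to 12.01 across K289R arrays (log2 of summed intensity), and Marco was the 1 marker at or below the background level. None of the 14 fell by as much as Fabp7, and the part of macrophage number or state in its fall was not tested.

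Neural and glial markers were also measured, since Fabp7 is best known from brain. Of 9 markers, 1 rose and 2 fell. Gfap, S100b, Sox2 and Nes had means at or below the background level. The 3 that moved were Aldh1l1 (0.34 ± 0.05), Slc1a2 (-0.27 ± 0.07) and Aqp4 (-0.63 ± 0.18), each of which had a mean above the background level. With random blocks Slc1a2 did not pass (adjusted p = 0.0513). Aqp4 differed by -0.26 among replicates 1 to 4 (limma adjusted p = 0.321) and by -1.12 among replicates 5 to 7 (limma adjusted p = 6.93e-05). Its interaction of genotype and set did not pass (limma adjusted p = 0.198). Aldh1l1 encodes a folate enzyme that liver also expresses, Slc1a2 a glutamate transporter and Aqp4 a water channel. The summed level of the 9 was 11.58 to 11.76 across WT arrays and 11.72 to 11.996 across K289R arrays (log2 of summed intensity). Aldh1l1 had the highest mean of the 9 (11.26 in WT and 11.60 in K289R livers), so the sum gives no level of glia. The part of neural or glial cells in the fall of Fabp7 was not tested.

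Fabp2 fell next most. It encodes the intestinal FABP, which takes part in dietary fatty acid uptake in enterocytes. Its level ran from 9.23 to 10.01 (log2 intensity) with a median of 9.79 in WT livers, and from 7.71 to 8.94 with a median of 8.38 in K289R livers. The groups did not overlap, and K289R replicate 7 was the lowest array. The means were 9.66 ± 0.32 and 8.46 ± 0.43 (SD, n = 7 each), a difference of -1.20 ± 0.17 and a fold of 2.30 (95% interval -1.55 to -0.86, limma adjusted p = 2.52e-05). Of all genes 43 fell by at least that amount, Fabp2 included. The fall was -0.90 among replicates 1 to 4 (limma adjusted p = 0.000581) and -1.61 among replicates 5 to 7 (limma adjusted p = 0.000306). The difference between these falls was -0.71, with a limma p of 0.0262 that did not pass adjustment (adjusted p = 0.522).

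Enterocyte markers are set beside Fabp2. Of 12 markers 1 fell, none rose and 11 did not pass. Vil1, Sis, Alpi, Slc5a1, Cdx2 and Cdh17 had means at or below the background level. The marker that fell was Slc10a2, which encodes the apical bile acid transporter known from ileum and bile duct, at -1.26 ± 0.13 (limma adjusted p = 7.21e-07). Apoa4 and Anpep, which liver also expresses, are among the markers above the background level, so the sum gives no level of enterocytes. The summed level of the 12 was 11.58 to 12.31 across WT arrays and 11.69 to 12.37 across K289R arrays (log2 of summed intensity).

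Fabp1, the liver form, fell by the smallest amount of the 4. Its level ran from 11.98 to 12.27 (log2 intensity) with a median of 12.14 in WT livers, and from 11.64 to 12.07 with a median of 11.96 in K289R livers. The groups overlapped, and 5 of the 7 K289R arrays lay below each WT array. The means were 12.14 ± 0.10 and 11.88 ± 0.17 (SD, n = 7 each). The difference was -0.26 ± 0.07, a fold of 1.20 (95% interval -0.40 to -0.12, limma adjusted p = 0.00884), and the random blocks kept it narrowly (adjusted p = 0.0489). Within the sets it was -0.19 among replicates 1 to 4 (limma adjusted p = 0.0915) and -0.35 among replicates 5 to 7 (limma adjusted p = 0.0516), so that neither set alone passed.

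**Figure D2:**
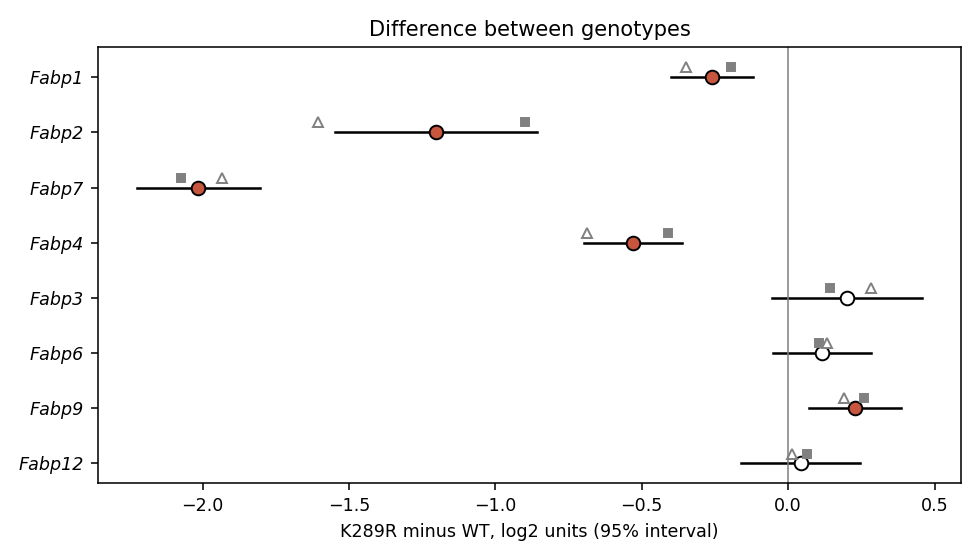
Difference between genotypes for each measured member (K289R minus WT, log2 units). Circles with lines are the limma estimate and its 95% interval over 14 arrays, filled where the adjusted p was below 0.05. Grey squares are the difference among replicates 1 to 4 and open triangles that among replicates 5 to 7. Fabp7, Fabp2, Fabp4 and Fabp1 lie below 0 in both sets.

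Fabp4 encodes the FABP of adipocytes, which binds hormone-sensitive lipase, and is also made by macrophages and capillary endothelium. Its level ran from 5.36 to 5.83 (log2 intensity) with a median of 5.55 in WT livers, and from 4.96 to 5.24 with a median of 5.07 in K289R livers. The groups did not overlap, and 2 of the 7 K289R arrays lay above the background level of 5.10, so the size of the fall may be understated. The means were 5.60 ± 0.17 and 5.07 ± 0.09 (SD, n = 7 each). The difference was -0.53 ± 0.08, a fold of 1.44 (95% interval -0.70 to -0.36, limma adjusted p = 7.33e-05). It was -0.41 among replicates 1 to 4 and -0.69 among replicates 5 to 7, both called.

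Cells known to make Fabp4 were followed by their markers. Of the 14 Kupffer cell and macrophage markers given beside Fabp7, 4 fell (Vsig4, C1qc, Folr2 and Adgre1), 1 rose (C1qa) and 9 did not pass. Of 10 adipocyte markers 2 rose, 1 fell and 7 did not pass, and the means of Adipoq, Lep, Cidea and Ucp1 were at or below the background level. Adipoq, which encodes adiponectin, stood at 3.42 ± 0.09 in WT and 3.30 ± 0.17 in K289R livers (log2 intensity, SD, n = 7 each). The 3 that moved were Car3 (-0.41 ± 0.06), Retn (0.71 ± 0.13) and Pck1 (0.96 ± 0.25). With random blocks the rise of Pck1 did not pass (adjusted p = 0.0623). Car3 and Pck1 are known to be expressed by hepatocytes as well. The summed level of the 10 was 12.79 to 12.94 across WT arrays and 12.49 to 13.005 across K289R arrays (log2 of summed intensity). Car3 and Pck1 are part of this sum, so it gives no level of adipocytes. Of 14 markers of capillary and sinusoidal endothelium 3 rose (Eng, Oit3 and Egfl7, by 0.28 to 0.37), Fcgr2b fell by 0.33 ± 0.08 and 10 did not pass. Their summed level was 11.89 to 12.05 across WT arrays and 11.79 to 12.12 across K289R arrays (log2 of summed intensity). The part of these cells in the fall of Fabp4 was not tested.

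The other members had levels near the background. Fabp3, the heart and muscle form, ran from 4.66 to 5.44 (log2 intensity) with a median of 4.94 in WT livers and from 5.00 to 5.51 with a median of 5.21 in K289R livers. The groups overlapped, and the difference of 0.20 ± 0.12 had a 95% interval of -0.05 to 0.46 (limma adjusted p = 0.284). Its dimmer probe set differed by 0.21 ± 0.12. Of 13 striated muscle markers 1 rose (Ckm, which encodes muscle creatine kinase, 0.30 ± 0.08) and none fell, and their summed level was 8.95 to 9.31 across WT arrays and 9.10 to 9.51 across K289R arrays (log2 of summed intensity).

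Fabp6 encodes the ileal bile acid binding protein, a known target of the bile acid receptor FXR. Its level ran from 3.50 to 3.85 (log2 intensity) with a median of 3.76 in WT livers and from 3.65 to 4.02 with a median of 3.77 in K289R livers. The groups overlapped, and the difference was 0.12 ± 0.08 (95% interval -0.05 to 0.28, limma adjusted p = 0.347). Nr1h4, which encodes FXR, differed by 0.17 ± 0.08 (limma adjusted p = 0.151).

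Fabp9 and Fabp12 encode members known from testis. Fabp9 ran from 2.59 to 2.94 (log2 intensity) with a median of 2.89 in WT livers and from 2.83 to 3.22 with a median of 3.00 in K289R livers, and the groups overlapped, with 5 K289R values higher than any in WT. Its difference of 0.23 ± 0.08 passed (limma adjusted p = 0.0388), though both means, 2.80 and 3.03, were below the 3.42 that was the median of the olfactory receptor genes. The call was lost with median centring (adjusted p = 0.0689), with random blocks (adjusted p = 0.166) and in 7 of 14 fits that left out 1 array. Of the 7046 genes at or below the background level, 1.55% were called higher and 1.85% lower. Fabp12 ran from 3.83 to 4.32 with a median of 4.16 in WT livers and from 3.91 to 4.53 with a median of 4.15 in K289R livers, a difference of 0.04 ± 0.10 (95% interval -0.16 to 0.25, limma adjusted p = 0.799). Of 7 male germ cell markers and 8 markers of keratinocytes, the cells best known for Fabp5, none passed limma's adjusted p of 0.05. The smallest p-values were those of Prm1 (0.13 ± 0.08) and Acrv1 (-0.08 ± 0.08) among the former, and of Ivl (0.19 ± 0.09) and Krt5 (0.21 ± 0.10) among the latter. Only 1 germ cell marker, Prm1, and 3 keratinocyte markers had means above the background level. Acrv1, Ivl and Krt5 did not, which limits what can be seen of them.

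Among replicates 1 to 4 alone 3 members passed, where 14.1% of all genes did, and among replicates 5 to 7 alone 3 passed, where 9.16% did. In both sets these were Fabp2, Fabp4 and Fabp7. The interaction of genotype and set passed adjustment for none of the 8 members in limma and for 0.114% of all genes, and its unadjusted p was below 0.05 for 1 member, Fabp2.

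Fabp1 and Fabp2 varied together between mice of the same genotype. Across the 7 WT arrays Pearson's r was 0.878 (exact permutation p = 0.00794, 2-sided) and Spearman's rho 0.857 (exact permutation p = 0.0238). Across the 7 K289R arrays r was 0.793 (exact permutation p = 0.0329) and rho 0.714 (exact permutation p = 0.0881). With 20 relations computed, 10 pairs of the 5 members whose mean over 14 arrays was above background, each taken in both genotypes, none passed Benjamini-Hochberg adjustment, and the smallest adjusted p for r was that of WT livers, 0.159 by the exact permutation test. Without the 2 arrays farthest from the Fabp1 median, r was 0.761 in WT and 0.441 in K289R livers, over 5 arrays each. Leaving out extreme values of Fabp1 narrows its range, which by itself can lower r. These values therefore cannot decide whether the K289R relation rests on the arrays left out. In WT livers replicates 5 to 7 were above replicates 1 to 4 for both genes, so the permutation p, which takes the 7 arrays as exchangeable, partly reflects the sets. With deviations taken from the means of the 4 sets, r over 14 arrays was 0.79. Fabp3 in WT and Fabp4 in K289R livers had means below the background level, so their relations, which count in the adjustment, are read partly from background. By contrast r between Fabp7 and Fabp2 was -0.45 in WT and 0.19 in K289R livers, with exact permutation p of 0.321 and 0.688.

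**Figure D3:**
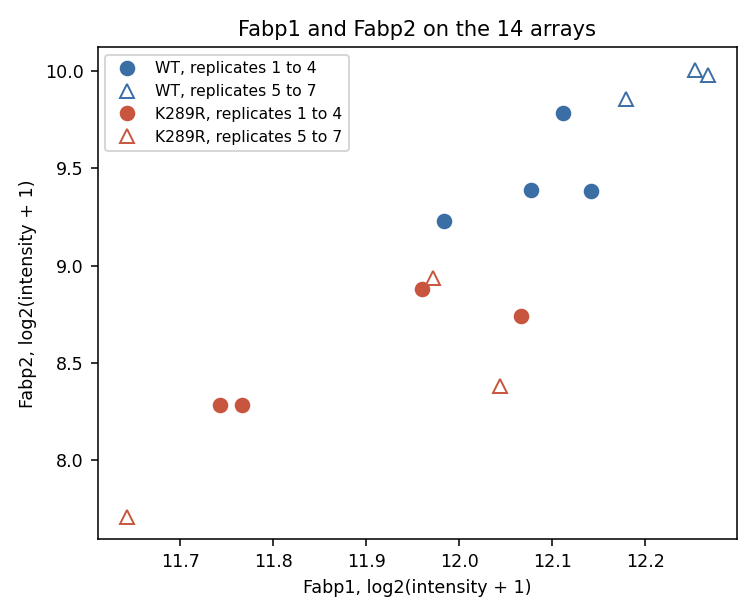
Fabp1 (horizontal) against Fabp2 (vertical), both log2(intensity + 1), on the 14 arrays. Blue is WT, red is K289R, filled circles are replicates 1 to 4 and open triangles replicates 5 to 7. Mice with more Fabp1 tended to have more Fabp2 in each genotype (r = 0.878 in WT and 0.793 in K289R livers), and the genotypes are separated by Fabp2.

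For the 5 members whose mean over 14 arrays was above background, genes of like pattern were sought among the 12191 genes above background. Likeness was Pearson's r over 14 arrays of the deviations from the genotype means, given as a description because arrays of a set share their deviations. For Fabp7 the 3 most alike were Med24, a subunit of Mediator (r = 0.92), Ly86, which encodes a partner of a Toll-like receptor homologue on immune cells (0.89), and Cd5l, which encodes a protein secreted by macrophages (0.88). Without K289R replicate 1 and WT replicate 2, the arrays where Fabp7 deviated most, r was 0.79, 0.76 and 0.91. Med24 differed by 0.21 ± 0.07, opposite in sign to Fabp7 (limma adjusted p = 0.0516). Ly86 fell by 0.31 ± 0.10 (limma adjusted p = 0.0452), and Cd5l differed by -0.25 ± 0.12 (limma adjusted p = 0.151).

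For Fabp1 the 3 genes most alike were Sar1b, Ces1f and Dtnbp1, with r of 0.91 to 0.93. Sar1b, a GTPase of vesicle export from the endoplasmic reticulum that chylomicron secretion needs, fell by 0.36 ± 0.06. The carboxylesterase gene Ces1f fell by 0.42 ± 0.09, and Dtnbp1 differed by -0.03 ± 0.07 (limma adjusted p = 0.825). Those of Fabp2 were the acyl-CoA thioesterase gene Acot4, the mitochondrial gene Cisd1 and Pgrmc2, with r of 0.91 to 0.92, of which Pgrmc2 fell by 0.45 ± 0.14 and the others did not pass. Those of Fabp4 were Gabra3, Pole4 and Arhgef3 (0.88), and those of Fabp3 were Mirlet7i, Glis2 and Dlgap1 (0.96), both read partly from values at background. Of these Arhgef3 rose by 0.41 ± 0.10 (limma adjusted p = 0.00592), and the rest did not pass.

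Several members are neighbours. In GRCm38.p6 the genes Fabp5, Pmp2, Fabp9, Fabp4 and Fabp12 follow each other on chromosome 3, where Pmp2 encodes a myelin relative of the family. Fabp4 fell there, while Pmp2 (0.06 ± 0.11) and Fabp12 did not pass and Fabp9 rose within the background. Fabp7 lies on chromosome 10 between Pkib and Smpdl3a. Smpdl3a, which encodes a phosphodiesterase and is a known target of the oxysterol receptor LXR, fell by 0.26 ± 0.07 (limma adjusted p = 0.0123, and 0.0601 with random blocks), while Hsf2, Serinc1 and Pkib each differed by less than 0.03. Elsewhere on chromosome 3, the gene next to Fabp2, 1810037I17Rik, fell by 1.19 ± 0.08 (limma adjusted p = 2.77e-09), from 8.32 ± 0.18 in WT to 7.13 ± 0.11 in K289R livers (SD, n = 7 each), without overlap of the groups. On the other side of Fabp2, the adjoining Pde5a differed by 0.03 ± 0.07, and the next gene, Fnbp1l, fell by 0.69 ± 0.11 (limma adjusted p = 7.68e-05) without overlap of the groups. Near Fabp1, Krcc1 fell by 0.60 ± 0.09 (limma adjusted p = 8.34e-05), also without overlap, while the adjoining Thnsl2 and Smyd1 did not pass. Pkib, Pde5a and Pmp2 had means at or below the background level, which limits what can be seen of them. Whether probes or transcripts of neighbours overlap was not tested.

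**Figure D4:**
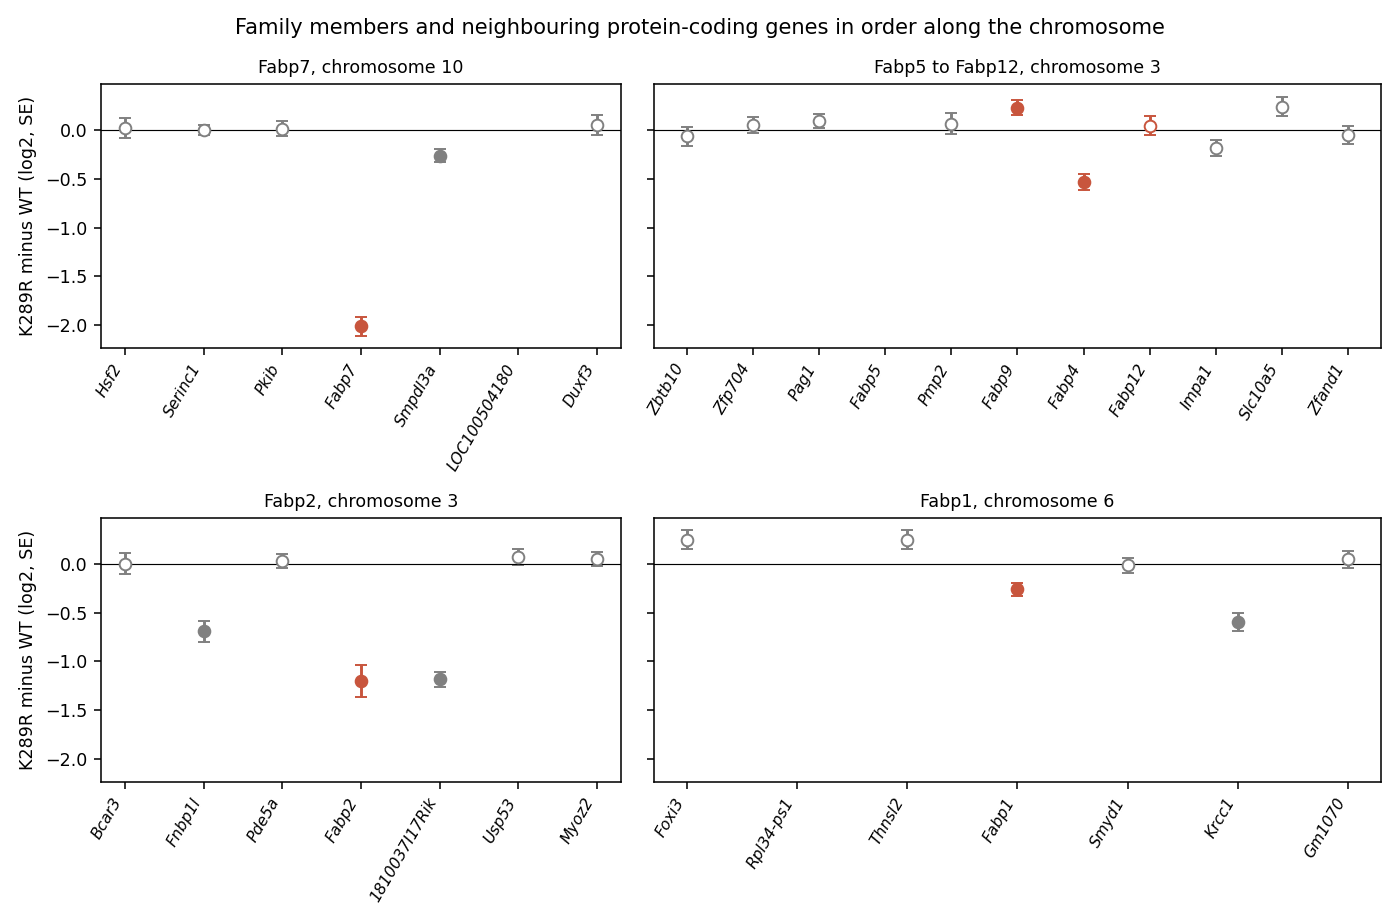
Difference between genotypes (K289R minus WT, log2 units, bars are SE) for family members (red) and neighbouring protein-coding genes (grey) in their order along the chromosome. Points are filled where limma's adjusted p was below 0.05, and genes with no point were not analysed here. Fabp7 (-2.01) stands below its neighbours, whereas Fabp2 (-1.20) and the adjoining 1810037I17Rik (-1.19) lie at like values. Pkib, beside Fabp7, and Pde5a, beside Fabp2, had means at or below the background level.

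Other genes of fatty acid handling moved in both directions. Of 5 relatives of the family that bind retinoids or lipids, 1 rose (Crabp1, 0.29 ± 0.10, a call lost with random blocks, adjusted p = 0.139) and none fell. Only Crabp1 had a mean above the background level, which limits what can be seen of the others. Of 13 genes of fatty acid uptake and activation 2 rose and 1 fell, with a median of 0.04. Slc27a5, the bile acid and very long-chain acyl-CoA synthetase of liver, rose by 0.24 ± 0.05 and Slc27a4 by 0.25 ± 0.08, while Cav1, a caveolar protein, fell by 0.37 ± 0.11. The fatty acid translocase gene Cd36 differed by -0.66 ± 0.25 (limma adjusted p = 0.0686). Its difference was 0.10 among replicates 1 to 4 and -1.66 among replicates 5 to 7, and the interaction passed (limma adjusted p = 0.0188). Mfsd2a, which encodes a lipid transporter, differed by 1.36 and -0.73 in the same sets, both called (interaction limma adjusted p = 0.0507).

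Of 10 carriers of acyl-CoA and lipids 1 rose and 3 fell, with a median of -0.05. Mttp, which loads lipid onto apolipoprotein B, fell by 0.42 ± 0.06 and the acyl-CoA binding domain genes Acbd3 and Acbd5 by 0.45 ± 0.07 and 0.30 ± 0.09, while the phosphatidylcholine carrier gene Pctp rose by 0.28 ± 0.09. The acyl-CoA binding protein gene Dbi differed by 0.20 ± 0.07 (limma adjusted p = 0.0502). Of 15 genes of glyceride handling 1 rose, the lipase gene Pnpla2 (0.38 ± 0.10), and 1 fell, its coactivator gene Abhd5 (-0.35 ± 0.08).

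Of 23 measured regulators of Fabp genes 5 rose and none fell, with a median of 0.06. That is 21.7% called, all of them higher, where 19.1% of all genes were called in either direction and 8.37% higher. Of the 23, 20 had means above the background level, where 12.3% of genes were called higher. Ppara rose by 0.48 ± 0.07, from 9.55 ± 0.08 to 10.03 ± 0.17 (SD, n = 7 each) without overlap of the groups, so it moved opposite to Fabp1. Rxrb, which encodes a partner of PPARs, rose by 0.38 ± 0.06, Foxa3, a hepatocyte factor, by 0.65 ± 0.16 and Ppard by 0.37 ± 0.10. Hnf4a differed by -0.03 ± 0.09 (limma adjusted p = 0.858). Of 17 target genes of PPAR-alpha other than Fabp1, 2 rose (Fgf21, 0.40 ± 0.10, and Cpt1a, 0.30 ± 0.10), Ehhadh fell by 0.27 ± 0.09 and 14 did not pass, with a median of 0.08. These pooled values cover different changes in the sets, since 11 of the 17 differed in opposite directions. In the first set (replicates 1 to 4) 10 were called, all of them higher, and in the second (replicates 5 to 7) 5 were called lower and 1 higher. Among all 19237 genes, 1332 were called higher and 1378 lower in the first set, and 363 higher and 1399 lower in the second. Cyp4a14, an omega-hydroxylase of fatty acids, differed by 2.89 in the first set and -2.12 in the second, and the acyl-CoA thioesterase gene Acot2 by 0.80 and -0.50, each with an interaction that passed (limma adjusted p = 0.00677). Vnn1, which encodes a pantetheinase, differed by 0.95 and -1.08, called in both sets (interaction limma adjusted p = 0.0508). The estimate of Fabp1 was below 0 in both sets. Slc27a4, Cav1, Acbd5, Pctp, Pnpla2, Ppard, Cpt1a and Ehhadh did not pass with random blocks (adjusted p from 0.0728 to 0.166). With them, 3 regulators (Ppara, Rxrb and Foxa3) and Fgf21 were still called.

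**Figure D5:**
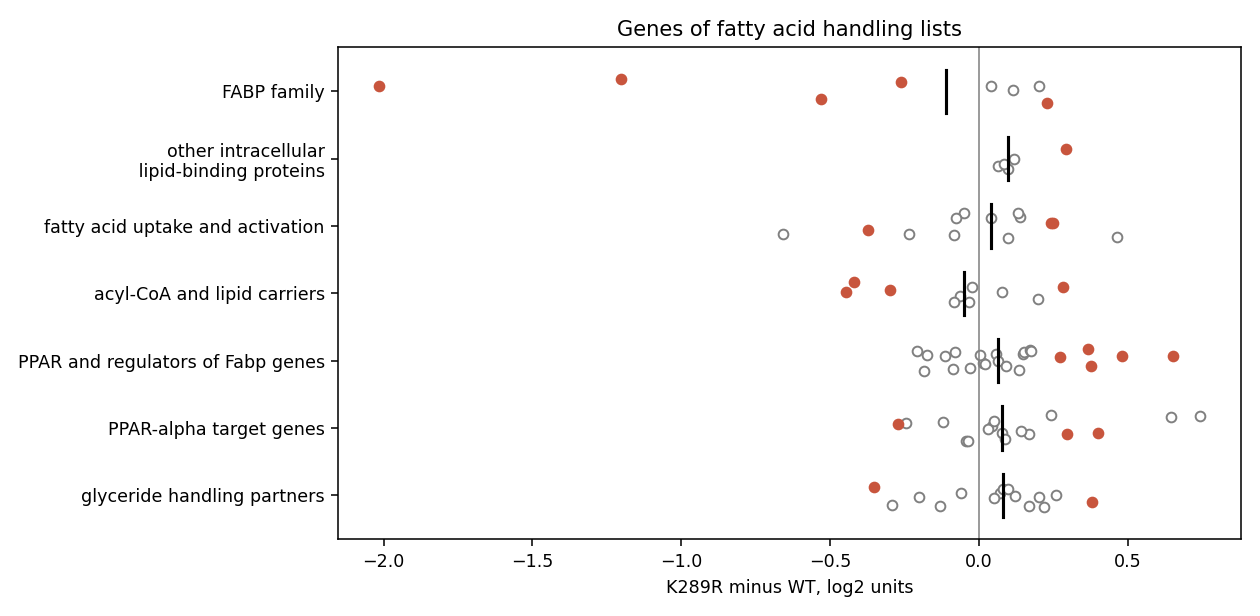
Difference between genotypes (K289R minus WT, log2 units, horizontal) for each measured gene of the FABP family and of 6 lists of fatty acid handling, 1 point per gene. Filled red points passed limma's adjusted p of 0.05, open points did not, and black bars are the list medians. The FABP family holds the lowest values, -2.01 and -1.20, and a median of -0.11.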

How the data were processed

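The authors deposited probe set intensities on a linear scale for 14 arrays, and the submitters' processing notes name Affymetrix Expression Console. Its version, background correction, summarisation and genome build are not given in the sources used here. Array medians lay between 39.2 and 43.3, and whether arrays had been scaled to each other is unknown. Arrays have no read depth, so their number limits the precision.

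Of 35556 probe sets, 21456 had 1 gene symbol, 2376 had several and were left out, and 11724 had none listed. Symbols were updated through Entrez identifiers in the GRCm38.p6 gene table (21277 probe sets matched). For each of 19237 genes, the probe set of highest mean log2(intensity + 1) was kept.

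Genotype alone was fitted with limma 3.58.1 in R 4.3.3 with an intensity trend, 2-sided, and tested on simulated data. The simulated arrays were independent and held no sets, so they do not show how the fit behaves where arrays of a set share deviations. No gene was filtered out. The members and gene lists were chosen with earlier results of these data known. All members were named, and of each list at most 4 genes past the threshold by smallest p, or the 2 with the smallest p. Clec4f, Csf1r, C1qa, Adipoq, Nr1h4, Cd36, Mfsd2a, Cyp4a14, Acot2, Vnn1, Apoa4, Anpep, Dbi, Hnf4a, the markers named at or below background and neighbours were named after their values were seen. Likeness used the 3 genes with the highest r. Relations between members used exact permutation tests, with scipy 1.17.1. RefSeq promoter windows were searched for exact letter matches. Alternatives were other scalings, pseudocounts, filters, priors, weights, blocks and left-out arrays.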

Additional observations from a re-analysis of the deposited data

Results flagged for a closer look

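Fabp7 in WT replicate 2 stood at 8.14 (log2 intensity), apart from the next WT array at 7.89. That gap was 0.591 of the range of the 7 WT arrays, above the critical value of Dixon's test. Among the 16 groups checked (8 members in each genotype) chance alone marks about 5% of groups. Without this array the difference of Fabp7 was -1.96.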

How the results depend on the processing

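The falls of Fabp2, Fabp4 and Fabp7 were called in each of the 30 alternative fits run, with differences of -1.61 to -0.90, -0.69 to -0.39 and -2.09 to -1.76. The fall of Fabp1 was called in all but those on replicates 1 to 4 or 5 to 7 alone, which use fewer arrays. In those fits 3 family genes were called in place of 5. Leaving out each array gave 4 or 5, with 3082 to 3857 of all genes called. With the sets as random blocks, 21 genes of the other lists passed in place of 37, and 2176 of all genes in place of 3678, against 2710 and 1762 in the sets alone. Quantile normalization called 2406 genes higher and 2028 lower, against 1610 and 2068. The labels do not say whether same-numbered WT and K289R arrays were paired, and the main fit used no pairing. Same-numbered arrays correlated between -0.27 and 0.54 in their deviations, which cannot decide it, because paired samples need not share deviations. With a replicate block 5 family genes were called, as without it, and 3838 of all genes. Leaving out K289R replicates 6 and 7 together, an alternative chosen after seeing the data, gave 4, with 3418 of all genes called. Dim probe sets limit what can be seen of Fabp3, Fabp6, Fabp9 and Fabp12, and of Fabp4 in K289R livers.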
